A study of Homo sapiens with 8 samples.

Results

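Bortezomib was compared with vehicle in MM.1S, an established human multiple myeloma (MM) cell line, by RNA sequencing after 12 h of treatment. The comparison was formed by the treatment labels and rests on 4 of the 8 samples of the series, 2 with vehicle and 2 with bortezomib. All 8 samples are labelled wild type, and the other 4 received FeAc, the iron compound of the study, alone or as bortezomib plus FeAc. The dose of bortezomib in these cultures is not given in the sources used here, and a single cell line stands for the disease. The methods call the replicates biological without saying how the cultures were separated, so the p-values below measure the spread between these samples. That spread is taken partly from genes of similar level, because the test used moderates the variance of each gene. Values are in TPM, a transcript level corrected for gene length and set to the same sum in every sample, so levels of different genes can be set side by side. No read counts were used, the depth of each sample is unknown, and a value listed at 0 has no known upper limit. The vehicle samples and the bortezomib samples lie in separate deposited tables, and an effect of the table and an effect of bortezomib cannot be told apart.

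The proteasome is the protease that degrades ubiquitin-tagged proteins, and bortezomib blocks its chymotrypsin-like site, which the subunit PSMB5 carries. Proteins that are not degraded engage the chaperones HSP70 and HSP90, and this frees the transcription factor HSF1 to act on heat shock genes. NFE2L1 (also called NRF1) raises proteasome genes when proteasome activity is low, NRF2 drives genes of antioxidant defence, and ATF4 drives genes of amino acid supply and stress. Plasma cells, the cells from which myeloma arises, secrete immunoglobulin and carry a heavy load of protein folding in the endoplasmic reticulum (ER).

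Values of the 4 samples summed to between 995489 and 996262. The unit fixes such sums, so they do not show that the separate tables match. The samples held between 13020 and 13510 genes with at least 1 TPM. Of 19 housekeeping genes tested, 1 passed the thresholds given below (REEP5, 140 and 120 TPM with vehicle and 79.1 and 87.4 TPM with bortezomib). ACTB and GAPDH did not, with log2 differences of -0.65 ± 0.20 (SE) and 0.62 ± 0.22. Without overlap of samples, 6 of the 19 were higher and 6 lower with bortezomib, beside 26.8% and 36.1% of all genes tested. All 10 markers of plasma cells had at least 1 TPM in all 4 samples, with summed levels from 5179 to 9908 TPM. The 10 markers of T cells, myeloid cells, red cells, stroma and endothelium summed to between 10.7 and 19.8 TPM. CD3D was listed at 0 in all 4 samples, and 6 of the 10 stayed under 1 TPM in each. Mitochondrially encoded genes took 8.16% and 14.0% of the TPM with vehicle and 5.49% and 8.23% with bortezomib, and their part in the differences below was not tested. Immunoglobulin genes took 11.7% and 12.9% with vehicle and 7.32% and 8.98% with bortezomib.

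The levels of many genes differed between bortezomib and vehicle, in both directions. Of 60671 genes listed, 14114 reached a group mean of 1 TPM or more under vehicle or bortezomib. These entered limma-trend on log2(TPM + 1), the scale of every log2 difference below. A gene was called at a Benjamini-Hochberg adjusted p under 0.05 and a difference over 1.5-fold. By this rule 1004 genes (7.11%) were called up, 1109 (7.86%) were called down, and 2113 (15%) were called in either direction. The median difference over all genes tested was -0.07. Differences over 4-fold were mostly rises, with 111 genes called up and 23 called down at that size. Both bortezomib samples lay above both vehicle samples for 3776 genes (26.8%) and below them for 5094 (36.1%), and these shares are the background for the counts without overlap given below. The balance of the directions moved with the scaling. The share of rises among called genes was 47.5%, but it was 57.7% after median-of-ratios scaling and 30.4% after scaling without mitochondrially encoded and immunoglobulin genes, which moved the median of all genes to -0.20. The calls need all 4 samples. With any 1 sample left out, limma-trend called 0 genes, while between 1234 and 1873 genes were over 1.5-fold higher and between 1224 and 2198 over 1.5-fold lower at an unadjusted p under 0.05. All 2113 called genes kept their direction in each of these 4 fits, which is bound to hold for any gene whose groups do not overlap.

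Heat shock genes were prominent among the largest rises, beside genes of other kinds. HFM1, a helicase of meiosis, was also among the 15 largest, from 0.02 and 0.03 TPM to 47.9 and 129 TPM (6.28 ± 0.43), though with FeAc its difference was -3.76. HSPA1A, an inducible cytosolic HSP70 chaperone, was at 7.18 and 1.69 TPM with vehicle and at 6388 and 4569 TPM with bortezomib. Its log2 difference was 10.17 ± 0.49 (SE, n = 2 per group, limma adjusted p = 0.000613). HSPA1B, a near-identical copy of HSPA1A that codes for the same kind of chaperone, was at 50.1 and 43.8 TPM with vehicle and at 9422 and 6312 TPM with bortezomib, a difference of 7.33 ± 0.22 (limma adjusted p = 0.000299). In both genes the groups were far apart, and bortezomib replicate 1 was the higher bortezomib sample. HSPA1A (chromosome 6, 31815464 to 31817946, plus strand, GRCh38, GENCODE) and HSPA1B (chromosome 6, 31827735 to 31830255, plus strand) are neighbours, and how reads were divided between the copies is not given in the sources used here. DNAJB1, the HSP40 co-chaperone that delivers clients to HSP70, was at 55.3 and 49.98 TPM with vehicle and at 2593 and 1641 TPM with bortezomib (5.27 ± 0.23, limma adjusted p = 0.000561).

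HSPA6, a strictly inducible HSP70 gene, was at 0 in each vehicle sample but stood at 81.0 and 32.5 TPM with bortezomib. The samples with bortezomib were both above those with vehicle, and no fold is given against a group at 0. Its pseudogene neighbour HSPA7 was listed at 0 with vehicle and at 7.16 and 3.38 TPM with bortezomib. FCGR2C, an Fc receptor gene that ends at position 161605662 on chromosome 1, just before HSPA7 starts at 161606291 on the same strand, went from 2.47 and 0.61 TPM to 1191 and 665 TPM. AL671762.1, a transcript that overlaps HSPA1B on the same strand, went from 5.02 and 1.69 TPM to 117 and 70.1 TPM. Reads of these overlapping or adjoining units may have been counted for either gene, and their values are uncertain for that reason. Of 148 non-coding genes called up that have coordinates, 26 overlapped a protein-coding gene called up, 6 of them on the same strand.

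Heat shock elements, the sites that HSF1 binds, were searched in the promoter windows of RefSeq (GRCh38.p14, 250 bases before to 50 after each gene start), on both strands. The motif with 3 alternating units was GAANNTTCNNGAA, and the one with 2 units was GAANNTTC, which lies within each 3-unit match. Of 35 genes called up in the 5 chaperone lists described below, 34 had a window, and FKBP4 had none. The 3-unit motif was in a window of 8 of these 34 (23.5%), as against 1.82% of all genes called up and 166 of all 27305 genes in the table (0.608%). The 2-unit motif was in 15 of the 34 (44.1%), as against 11.7% of all genes called up and 8.21% of all genes. A match describes letters and does not show a bound site. Stretches upstream of the start of genes described here follow, 5′ to 3′ on the strand of the gene, with the match and its overlaps in capitals, to show what these letters look like in genes that rose. HSPA8 holds separate 3-unit matches, CHORDC1 holds 3 overlapping ones, and HSPA1A and HSPA1B hold the same 2-unit match in nearly the same surroundings.
HSPA6 (chr1:161524451-161524493, plus, 3-unit): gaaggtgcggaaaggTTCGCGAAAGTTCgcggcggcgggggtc
HSPA8, farther from the start (chr11:123062339-123062381, minus, 3-unit): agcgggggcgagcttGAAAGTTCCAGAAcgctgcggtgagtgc
HSPA8, nearer to the start (chr11:123062164-123062206, minus, 3-unit): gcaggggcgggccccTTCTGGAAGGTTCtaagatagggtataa
DNAJB6 (chr7:157336858-157336900, plus, 3-unit): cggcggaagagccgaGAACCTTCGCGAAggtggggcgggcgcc
CHORDC1 (chr11:90223072-90223124, minus, 3-unit): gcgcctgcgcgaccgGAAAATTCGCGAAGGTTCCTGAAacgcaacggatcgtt
HSPA1A (chr6:31815422-31815459, plus, 2-unit): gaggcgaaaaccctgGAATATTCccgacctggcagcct
HSPA1B (chr6:31827618-31827655, plus, 2-unit): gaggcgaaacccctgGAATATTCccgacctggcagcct
HSPB1 (chr7:76302476-76302513, plus, 2-unit): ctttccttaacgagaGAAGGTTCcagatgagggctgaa

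The rise of chaperones was broad but not uniform. Over all genes tested, 7.11% were called up and 7.86% down. Of 15 HSP70 family rows tested, 10 (66.7%) were called up and none down, with a median log2 difference of 1.17. The symbol HSPA14 stands for 2 gene IDs in this count. HSPA8, the constitutive HSP70 of the cytosol, rose from 2017 and 1301 TPM to 15064 and 14463 TPM (3.19 ± 0.26, limma adjusted p = 0.00271). By level it went from the 88th to the 4th gene of the transcriptome of those ranked by mean TPM. HSPH1, an exchange factor of HSP70, went from 74.9 and 75.7 TPM to 656 and 622 TPM. HSPA5, the HSP70 of the ER lumen, went from 210 and 263 TPM to 681 and 706 TPM (1.56 ± 0.17). Of 22 DNAJ co-chaperones, 8 (36.4%) were called up and 1 (4.55%) down, the latter below the share over all genes. DNAJA4 (3.35 ± 0.20), DNAJB2 (2.43 ± 0.17) and DNAJA1 (1.68 ± 0.17) were among those that rose, and DNAJC10, a reductase of the ER, fell by 0.94 ± 0.16.

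Of 16 HSP90 genes and co-chaperones, 9 (56.2%) were called up and 2 (12.5%) down, beside 7.11% and 7.86% of all genes tested. HSP90AA1, the inducible cytosolic HSP90, was at 595 and 360 TPM with vehicle and at 6779 and 6097 TPM with bortezomib (3.79 ± 0.26, limma adjusted p = 0.00168). HSP90AB1, its constitutive relative, went from 988 and 1232 TPM to 6404 and 5917 TPM. STIP1, which links HSP70 to HSP90, rose by 1.43 ± 0.14 and FKBP4, an immunophilin of steroid receptor complexes, by 1.58 ± 0.14. FKBP5, another such immunophilin, fell by 1.17 ± 0.19, and TRAP1, the mitochondrial HSP90, fell by 0.72 ± 0.14. HSF1 itself did not pass the test, with 57.8 and 65.2 TPM with vehicle and 81.0 and 66.6 TPM with bortezomib. The small heat shock protein HSPB1 went from 119 and 116 TPM to 3791 and 2338 TPM (4.65 ± 0.24), and BAG3, a co-chaperone that sends clients to autophagy, from 8.57 and 10.1 TPM to 315 and 216 TPM (4.67 ± 0.21). Of the other 6 members of their list of small heat shock and BAG genes none was called up, and HSPB11 fell by 1.02 ± 0.19.

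Of 10 chaperonin genes, 6 (60%, beside 7.11% of all genes tested) were called up and none down. The mitochondrial pair HSPD1 and HSPE1 rose by 2.28 ± 0.18 and 2.21 ± 0.25. Members of the cytosolic TRiC complex, which folds actin and tubulin, ranged from 0.04 ± 0.21 for CCT2, not called, to 1.17 ± 0.15 for TCP1, called up. The 5 chaperone lists together took 1.34% and 1.16% of all TPM with vehicle and 7.22% and 6.17% with bortezomib.

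**Figure D1:**
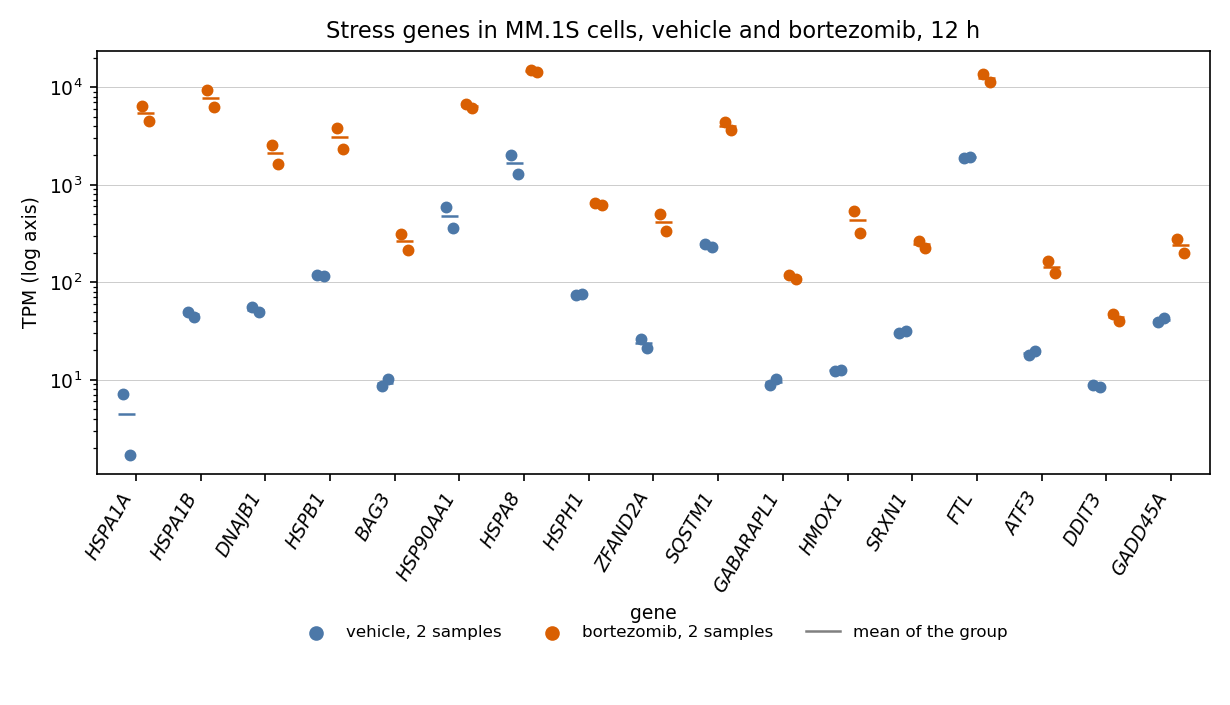
TPM on a log axis of 17 stress genes in MM.1S cells, with each of the 2 vehicle and 2 bortezomib samples as a point and the group mean as a bar. In every gene shown the groups do not overlap, and HSPA1A spans the widest distance, from 7.18 and 1.69 TPM to 6388 and 4569 TPM.

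All 33 tested subunits of the standard proteasome were higher in both bortezomib samples than in both vehicle samples, and 28 of them (84.8%) were called up. Their log2 differences lay between 0.46 and 2.15 with a median of 1.01, and the called subunits lay in the core, the base and the lid. PSMC4, an ATPase of the 19S cap, had the largest difference, with 79.8 and 86.0 TPM with vehicle and 376 and 366 TPM with bortezomib (2.15 ± 0.14, limma adjusted p = 0.00144). PSMD11, a lid subunit, went from 68.2 and 74.9 TPM to 267 and 233 TPM (1.79 ± 0.15), and PSMD12, also of the lid, from 45.3 and 43.3 TPM to 146 and 126 TPM (1.60 ± 0.15). PSMD2 and PSMD3 rose by 1.59 ± 0.16 and 1.51 ± 0.15. PSMB5, the subunit that bortezomib binds, went from 67.0 and 55.4 TPM to 148 and 135 TPM (1.202 ± 0.157, limma adjusted p = 0.00833). The 5 subunits not called were PSMA2, PSMA3, PSMA4, PSMB1 and ADRM1. For PSMA3 the vehicle samples stood apart at 197 and 113 TPM, against 204 and 206 TPM with bortezomib.

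The immunoproteasome and PA28 genes serve antigen processing. Of 5 tested, none was called up, and PSMB9 fell by 0.72 ± 0.15, from 69.0 and 59.4 TPM to 39.4 and 37.7 TPM. PSMB8 (-0.48 ± 0.14), PSME2 (-0.48 ± 0.14), PSME1 (-0.15 ± 0.14) and PSMB10 (0.02 ± 0.14) were not called. Of 18 genes for assembly and control of the proteasome, 4 (22.2%) were called up and 2 (11.1%) down, beside 7.11% and 7.86% of all genes tested. The assembly factor POMP rose from 82.7 and 56.6 TPM to 199 and 172 TPM, and NFE2L1 from 57.7 and 59.4 TPM to 175 and 140 TPM. USP14, a deubiquitinase of the cap, rose by 1.23 ± 0.16 and PSME4, an alternative activator, by 0.89 ± 0.15. The assembly chaperones PSMG1 and PSMG4 fell by 0.81 ± 0.18 and 0.73 ± 0.17. The core letters of the antioxidant response element, TGACNNNGC, were in a promoter window of 7 of the 24 called subunits that have a window (29.2%) and of 2 of 4 subunits not called. The share was 27.4% over all genes called up, 19.6% over genes tested and 16.1% over all genes in the table.

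The ATPase p97 extracts ubiquitin-tagged proteins from membranes and complexes. Of 21 ubiquitin genes and cofactors of p97, 12 (57.1%, beside 7.11% of all genes tested) were called up and none down. UBB, a polyubiquitin gene, went from 723 and 687 TPM to 3281 and 2404 TPM (1.99 ± 0.20). RPS27A, which carries ubiquitin fused to a ribosomal protein, was not called, with a difference of 0.12. ZFAND2A, an arsenite-inducible factor tied to the proteasome, went from 26.4 and 21.3 TPM to 502 and 338 TPM (4.06 ± 0.22). NPLOC4 and NSFL1C, adaptors of p97, rose by 1.72 ± 0.16 and 1.58 ± 0.14.

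Of 25 autophagy genes, 6 (24%, beside 7.11% of all genes tested) were called up and none down, with a median of 0.32. SQSTM1 (p62), which binds ubiquitin and the autophagosome, went from 247 and 229 TPM to 4383 and 3616 TPM (4.06 ± 0.17, limma adjusted p = 0.000561). GABARAPL1, which coats the autophagosome, went from 8.79 and 10.2 TPM to 119 and 107 TPM (3.45 ± 0.16). CALCOCO2, a further receptor, rose by 1.54 ± 0.14 and MAP1LC3B by 1.15 ± 0.17. GABARAP, the relative of GABARAPL1, was at 253 and 234 TPM with vehicle and at 205 and 176 TPM with bortezomib and was not called.

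Of 25 NRF2 targets, 19 (76%) were called up and none down, with a median of 1.28. HMOX1, which degrades heme and sets iron free, was at 12.4 and 12.5 TPM with vehicle and at 544 and 320 TPM with bortezomib (4.96 ± 0.25, limma adjusted p = 0.000713). SRXN1, which repairs peroxiredoxins, went from 30.6 and 32.04 TPM to 267 and 225 TPM (2.93 ± 0.15). SLC7A11, the cystine transporter that feeds glutathione synthesis, was low with vehicle at 0.53 and 0.67 TPM and stood at 13.1 and 13.2 TPM with bortezomib (3.14 ± 0.21). OSGIN1 rose by 3.27 ± 0.24 and GSR, glutathione reductase, by 1.83 ± 0.14.

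Of 18 iron genes tested for uptake, storage and export, 2 (11.1%) were called up and 2 (11.1%) down, beside 7.11% and 7.86% of all genes tested, with a median of -0.13. The lists share members, and both iron genes called up, HMOX1 and FTL, are also counted among the NRF2 targets. FTL, the ferritin light chain that stores iron and is also an NRF2 target, went from 1902 and 1939 TPM to 13553 and 11272 TPM (2.69 ± 0.21, limma adjusted p = 0.00232) and was the 5th gene by level with bortezomib. FTH1, the ferritin heavy chain, was at 294 and 277 TPM with vehicle and 388 and 297 TPM with bortezomib and was not called. TFRC, the transferrin receptor, was at 120 and 123 TPM with vehicle and 65.6 and 94.2 TPM with bortezomib, a difference of -0.61 ± 0.20 that missed the threshold (limma adjusted p = 0.0827). STEAP3, an iron reductase of the endosome, fell by 1.31 ± 0.33, and SLC25A37, which carries iron into mitochondria, by 0.92 ± 0.21. None of 4 metallothionein and zinc genes was called. Of 16 ferroptosis regulators, 5 (31.2%, beside 7.11% of all genes tested) were called up. Among them, HSPB1 and SLC7A11 are also counted in lists above. AIFM2 (1.89 ± 0.16), which protects lipids through coenzyme Q, and CHAC1 (2.05 ± 0.24), which degrades glutathione, rose too. ALOX5, a lipoxygenase, fell by 1.18 ± 0.22.

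Of 28 ATF4 targets, 23 (82.1%) were called up and none down, with a median of 1.45. ATF3, a transcription factor of the same family, went from 18.1 and 19.9 TPM to 165 and 124 TPM (2.85 ± 0.18, limma adjusted p = 0.00144), and DDIT3 (CHOP) from 8.92 and 8.41 TPM to 47.2 and 40.1 TPM (2.20 ± 0.16). PSAT1, of serine synthesis, rose by 2.04 ± 0.15, SLC3A2, the partner of several amino acid transporters, by 2.19 ± 0.16, and PPP1R15A, which guides a phosphatase to eIF2alpha, by 2.21 ± 0.19. Of the members tested only VLDLR, a lipoprotein receptor, lay below 0, at -0.23 ± 0.28, and it was not called.

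Of 26 genes of ER folding, 2 (7.69%, beside 7.11% of all genes tested) were called up, HSPA5 and DNAJC3, and 1 down, XBP1, with a median of 0.05. CALR, a lectin chaperone of the ER, was at 652 and 795 TPM with vehicle and 1080 and 1165 TPM with bortezomib, a difference of 0.64 ± 0.17 that was not called. XBP1, the transcription factor that shapes the secretory ER, fell from 893 and 878 TPM to 535 and 567 TPM (-0.69 ± 0.15, limma adjusted p = 0.0309). Of 17 ER-associated degradation genes, 1 (5.88%) was called up and 2 (11.8%) down, the latter beside 7.86% of all genes tested. HERPUD1 rose by 1.02 ± 0.17, and EDEM3 and UBE2J1 fell by 0.87 ± 0.16 and 0.74 ± 0.15.

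Some genes of growth arrest and cell death were called, beside 7.11% called up and 7.86% called down over all genes tested. Of 21 p53 targets and arrest genes, 7 (33.3%) were called up and 1 (4.76%) down. GADD45A, a stress sensor of DNA repair and arrest, went from 39.1 and 42.9 TPM to 279 and 202 TPM (2.51 ± 0.19), GADD45G from 1.81 and 1.80 TPM to 40.1 and 25.6 TPM (3.56 ± 0.24), and CDKN1A (p21) from 37.1 and 40.6 TPM to 161 and 122 TPM (1.83 ± 0.18). SESN1, a p53 target that limits mTORC1, fell by 0.73 ± 0.15. Of 12 genes of the BCL2 family, 1 (8.33%) was called up and none down, near the share over all genes. It was PMAIP1 (NOXA), a proapoptotic member that binds MCL1, at 5.97 and 3.85 TPM with vehicle and 10.5 and 10.1 TPM with bortezomib (0.96 ± 0.23, limma adjusted p = 0.0396). MCL1, the survival factor of myeloma cells, was at 190 and 217 TPM with vehicle and at 254 and 233 TPM with bortezomib and was not called. Of 22 genes of death receptors, caspases and their inhibitors, 5 (22.7%) were called up and none down, led by TNFRSF10A, a TRAIL receptor (0.89 ± 0.15), and FADD, its adaptor (0.87 ± 0.18). This count was 2 after scaling without mitochondrially encoded and immunoglobulin genes. Of 16 NF-kB targets, 2 (12.5%) were called up, CCL3 (0.98 ± 0.16) and RELB (0.61 ± 0.15).

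Immediate-early genes went both ways, with 5 of 21 (23.8%) called up and 3 (14.3%) down, beside 7.11% and 7.86% of all genes tested. JUN rose from 54.7 and 52.5 TPM to 266 and 189 TPM (2.04 ± 0.19), while its partner FOS fell from 53.5 and 64.1 TPM to 29.1 and 29.9 TPM (-0.97 ± 0.16). DUSP6, a phosphatase that ERK signalling induces and that acts on ERK, fell from 20.7 and 19.8 TPM to 3.01 and 3.84 TPM (-2.27 ± 0.19, limma adjusted p = 0.00271). DUSP4 fell by 0.80 ± 0.17, and DUSP5 rose by 0.81 ± 0.15. With all 8 samples in a single fit, 3 were called up and 1 down.

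Genes of DNA replication were lower with bortezomib. Of 34 tested, 14 (41.2%) were called down and none up, with a median of -0.62, and 30 of the 34 were lower in both bortezomib samples than in both vehicle samples. CCNE1 (cyclin E1), which drives entry into S phase, fell from 25.2 and 28.1 TPM to 9.26 and 8.66 TPM (-1.47 ± 0.16, limma adjusted p = 0.00523). MCM3, of the replicative helicase, fell from 128 and 151 TPM to 56.3 and 62.6 TPM, and TYMS, which makes thymidylate, from 243 and 272 TPM to 110 and 118 TPM. E2F1, the transcription factor of S phase genes, fell by 1.04 ± 0.16. RRM2, of ribonucleotide reductase, was the member farthest above 0, at 343 and 485 TPM with vehicle and 630 and 693 TPM with bortezomib (0.69 ± 0.20, not called). Of 26 mitosis genes, 6 (23.1%, beside 7.86% of all genes tested) were called down and none up, among them TOP2A (-0.82 ± 0.16) and CENPF (-0.92 ± 0.19). That count was 3 after median-of-ratios scaling and 11 after scaling without mitochondrially encoded and immunoglobulin genes. The count of replication genes called down was 8 with all 8 samples in a single fit. Of 25 genes of ribosome biogenesis and MYC targets, 3 (12%, beside 7.86% of all genes tested) were called down. Among them was CAD, which starts pyrimidine synthesis (-0.95 ± 0.18), and RRP12 was called up (0.89 ± 0.15). With all 8 samples in a single fit 0 of these falls were called, and after scaling without mitochondrially encoded and immunoglobulin genes 8 were. Of 50 ribosomal protein genes none was called by limma-trend, nor was any of 13 mitochondrially encoded mRNAs, and of 34 nuclear genes of oxidative phosphorylation NDUFV2, a subunit of complex I, was called down (-0.63 ± 0.15). MYC was not called, at 366 and 414 TPM with vehicle and 395 and 400 TPM with bortezomib.

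Most of the 15 largest falls lay outside these lists. HES6, a transcriptional regulator of the HES family, fell from 77.7 and 67.0 TPM to 9.25 and 8.84 TPM (-2.87 ± 0.16, limma adjusted p = 0.000852). MYB, a transcription factor of blood progenitors, fell from 28.9 and 36.5 TPM to 4.18 and 4.34 TPM (-2.67 ± 0.18, limma adjusted p = 0.00168). CCR2, a chemokine receptor, fell from 8.68 and 8.24 TPM to 0.49 and 0.47 TPM, and TMPRSS15, a serine protease, from 48.9 and 33.1 TPM to 5.63 and 5.34 TPM. AMPH, a protein of clathrin endocytosis, fell by 2.28 ± 0.27. SHCBP1L was at 37.9 and 13.1 TPM with vehicle, and PSLNR, a long non-coding RNA, at 10.7 and 18.96 TPM, and both were listed at 0 in both bortezomib samples. Genes listed at 0 in both samples of a group and above 0 in both of the other, with a mean of at least 1 TPM, numbered 66 at 0 with vehicle (6 protein-coding) and 37 at 0 with bortezomib (4 protein-coding). HSD17B6, a steroid dehydrogenase, was among the 15 largest rises, from 1.08 and 3.95 TPM to 117 and 72.1 TPM (4.85 ± 0.43).

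Of 14 plasma cell genes tested, 6 (42.9%) were called down and none up. GPRC5D, a surface receptor of plasma cells, fell from 182 and 210 TPM to 43.04 and 61.8 TPM (-1.90 ± 0.20, limma adjusted p = 0.00483). CD38 fell from 30.3 and 40.2 TPM to 14.1 and 18.4 TPM, and SDC1 (CD138), the syndecan used to identify plasma cells, from 225 and 286 TPM to 130 and 160 TPM. MZB1, an ER protein of antibody-secreting cells, and IKZF1 fell by 0.80 ± 0.15 and 0.72 ± 0.17. The transcription factors PRDM1 and IRF4 and the receptor SLAMF7 were not called, with differences of 0.31 ± 0.15, 0.02 ± 0.20 and 0.49 ± 0.14. With all 8 samples in a single fit the count of falls was 2. The immunoglobulin light chain genes IGLV2-14 and IGLC1 were the 2 highest genes in both groups. IGLC1 was at 35675 and 38561 TPM with vehicle and at 24381 and 29843 TPM with bortezomib, and the difference of -0.46 ± 0.30 was not called. Of 13 adhesion receptors, 2 (15.4%, beside 7.86% of all genes tested) were called down. ITGA4, the alpha4 integrin that binds VCAM1, fell from 61.4 and 66.9 TPM to 26.5 and 31.8 TPM (-1.11 ± 0.16), and CXCR4, the homing receptor, fell by 0.64 ± 0.15. Of 18 HLA and antigen presentation genes, 2 (11.1%) were called down, also beside 7.86%, and none up. They were TAP1 and ERAP1, of antigen processing, with falls of 0.66 ± 0.14 and 0.82 ± 0.20. Of a longer list of 28 markers of other blood and stromal cells, 7 were tested. The levels of all 28 summed to 26.9 and 24.7 TPM with vehicle and to 19.1 and 20.9 TPM with bortezomib. The called members were these. HBB, a globin, was at 13.5 and 9.70 TPM with vehicle and at 1.62 and 5.18 TPM with bortezomib, and COL1A1, a collagen, at 1.00 and 0.81 TPM and at 4.74 and 4.89 TPM.

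**Figure D2:**
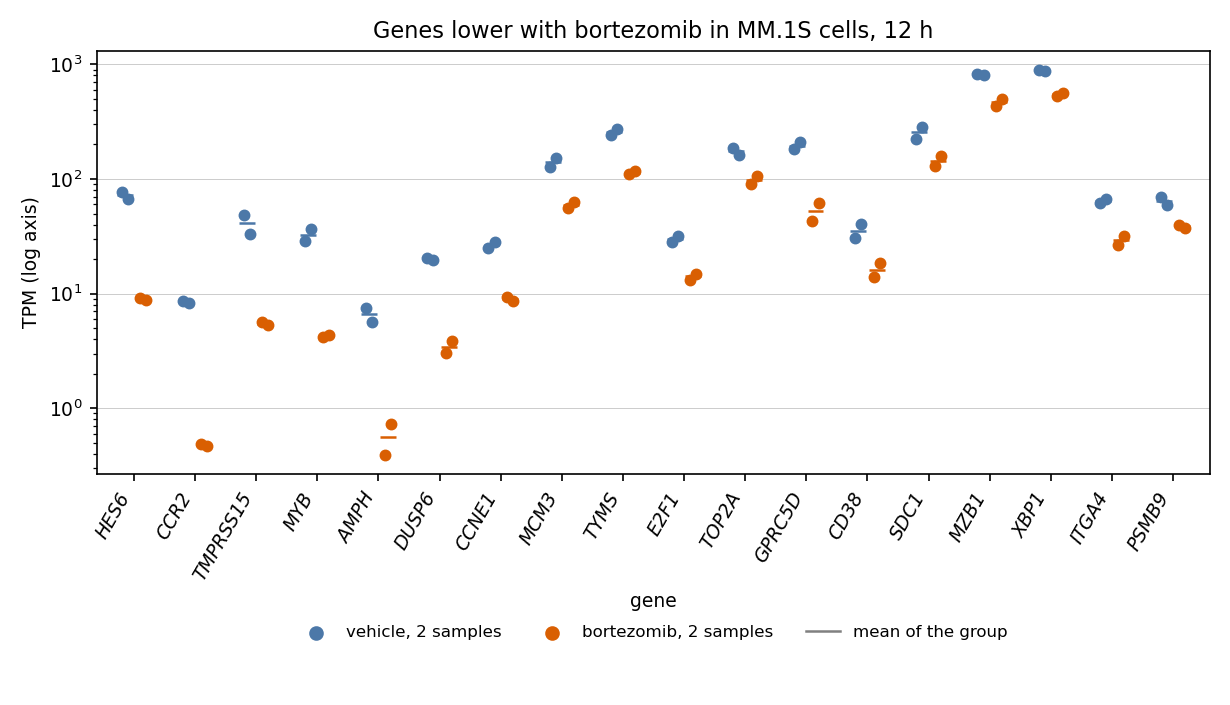
TPM on a log axis of 18 genes that fell, with each of the 2 vehicle and 2 bortezomib samples as a point and the group mean as a bar. The groups do not overlap in any gene shown. The levels range from AMPH, at 0.39 and 0.73 TPM with bortezomib, to XBP1, at 893 and 878 TPM with vehicle.

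Some lipid genes were called, beside 7.11% called up, 7.86% called down and 15% called in either direction over all genes tested. Each share below rests on 1 or 2 genes. Of 8 mevalonate pathway genes 2 (25%) were called down, PMVK (-0.93 ± 0.14) and ACAT2 (-0.71 ± 0.17). Of 12 genes of sterol synthesis from squalene 1 (8.33%) was called down, near the share over all genes. It was SQLE, an oxygenase of that route, which went from 4.73 and 4.75 TPM to 1.76 and 2.27 TPM. None of 6 SREBP2 targets outside synthesis was called. Of 15 fatty acid genes, 2 (13.3%) were called up and 2 (13.3%) down. ME1, the malic enzyme that is also an NRF2 target, rose by 1.33 ± 0.15 and ELOVL5, an elongase of polyunsaturated fatty acids, by 0.63 ± 0.15, while SCD, the stearoyl desaturase, fell by 0.88 ± 0.21. ELOVL6, another elongase, fell and was at 24.4 and 15.9 TPM with vehicle and at 9.33 and 3.89 TPM with bortezomib (-1.54 ± 0.38), and its samples varied widely within each group.

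The same contrast was then read in cells with iron, as bortezomib plus FeAc against FeAc, in 4 samples that had no part in the calls. These samples are split over the same pair of tables, so a difference between tables would enter here too. Both bortezomib plus FeAc samples lay above both FeAc samples for 908 of the 1004 genes called up, against 2745 of 14114 genes tested (19.4%). They lay below for 1052 of the 1109 genes called down, against 5658 of 14114 (40.1%). All 33 proteasome subunits were higher without overlap, with a median of 1.02. HSPA1A differed by 10.16 and HMOX1 by 5.01 on the log2 scale, beside 10.17 and 4.96 without FeAc. The sizes were not alike throughout. The median over genes called up was 0.87 with FeAc and 1.11 without, and over genes called down -0.98 and -0.97. The ATF4 targets had a median of 0.97 with FeAc and 1.45 without, and the HSP70 family 1.26 and 1.17. The bortezomib plus FeAc samples stood far apart from each other in several of these genes. HMOX1 was at 1663 and 339 TPM, HSPA6 at 150 and 2.73 TPM and DNAJB1 at 3506 and 1021 TPM. The difference of the differences, with against without FeAc, was tested over all 8 samples. Of 14812 genes, 1 (0.00675%) was called by limma-trend, a row of the small nucleolar RNA SNORD22. At an unadjusted p under 0.05 there were 348 genes, fewer than the share of 0.05 that this threshold passes without any difference. That number moved when a sample was left out. With 2 samples per group, and with bortezomib plus FeAc samples far apart, this count does not show that the differences are equal.

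**Figure D3:**
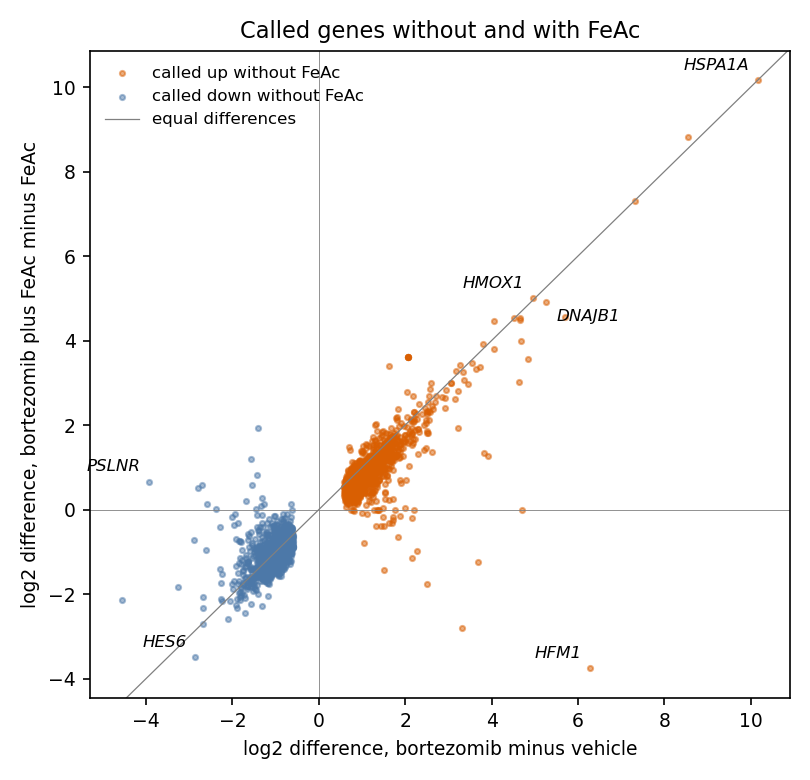
Log2 difference of each of the 2113 called genes without FeAc (horizontal, bortezomib minus vehicle) and with FeAc (vertical, bortezomib plus FeAc minus FeAc), on log2(TPM + 1), with the diagonal marking equal differences. Most points keep their sign, and HFM1 is the point farthest below 0 among the genes called up, at -3.76 with FeAc.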

How the data were processed

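RNA was sequenced from MM.1S cells in 4 groups of 2 samples. The deposited values were read as TPM from the column sums, since the headers name no unit. Per the submitters' processing notes the tools were edgeR, DESeq2, RSEM, HISAT2 and StringTie and the build GRCh38.p13. No version, role or strand setting is given in the sources used here. The tables also hold comparisons made by the authors (means per group, p-values, fold changes and verdicts), which were not used, and 0 other sample columns were set aside. The tables were joined on gene ID, and 96.3% of IDs were found in GENCODE 29 (GRCh38). Genes whose vehicle or bortezomib mean reached 1 TPM entered limma-trend (limma 3.58.1, R 4.3.3) on log2(TPM + 1), with Benjamini-Hochberg adjustment, and called at an adjusted p under 0.05 and over 1.5-fold. Every SE is limma's, with n = 2 per group and 2 residual degrees of freedom, and its variance is moderated toward that of genes of similar level. TPM hold no depth, so no counting interval is given. The 37 gene lists were chosen with earlier results of these data known. Genes were named from the 15 largest rises and falls with at least 5 TPM and no overlap, and per list the 6 with the smallest p, up to 2 that went against the median and all members of lists of up to 10. PSMB5, PSMA2, PSMA3, PSMA4, PSMB1, ADRM1, HSF1, HSPA7, IRF4, RPS27A, MYC, TFRC, FTH1, IGLC1 and IGLV2-14 were added after their values were seen. Alternatives were other pseudocounts, filters, scalings, fits and folds, a replicate block and each sample left out. The text names part of these, and mostly leaves out non-coding RNAs and pseudogenes among the 15.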

Additional observations from a re-analysis of the deposited data

Results flagged for a closer look

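Genes are given here because the bortezomib difference with FeAc and the difference without it differed or had opposite directions in every sample. SNORD22, a small nucleolar RNA listed under more than 1 gene ID, had a row (ENSG00000278527) at 24.56 and 33.55 TPM in the FeAc samples and at 0 in the other 6 samples. The difference of the differences was -4.89 ± 0.36 (limma adjusted p = 0.0167). It was not called with a pseudocount of 0.1, without a filter, with a minimum mean of 5 TPM or with the replicate block, and the row is at 0 in both groups of the comparison without FeAc. HFM1, a helicase of meiosis, was at 0.02 and 0.03 TPM with vehicle and at 47.9 and 129 TPM with bortezomib, but at 36.8 and 168 TPM with FeAc and at 32.2 and 0.05 TPM with bortezomib plus FeAc. Its difference with FeAc was -3.76 on the log2 scale. AC025262.2 was at 8.36 and 3.56 TPM with vehicle, at 0 in both bortezomib samples, at 2.33 and 1.92 TPM with FeAc and at 2.62 and 4.99 TPM with bortezomib plus FeAc, a difference of 0.58 with FeAc. AC007319.1 was at 11.9 and 2.03 TPM with vehicle, at 0 and 0.07 TPM with bortezomib, at 0 in both FeAc samples and at 0.07 and 0.13 TPM with bortezomib plus FeAc, a difference of 0.14 with FeAc. For HFM1, AC025262.2 and AC007319.1 the difference of the differences did not pass in limma-trend, with adjusted p-values of 0.983, 0.967 and 0.983.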

How the results depend on the processing

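The counts of 1004 rises and 1109 falls became 1020 and 1151 with a pseudocount of 0.1, 1009 and 1174 with a minimum mean of 5 TPM, 962 and 935 with all 8 samples in a single fit, 1125 and 826 with median-of-ratios scaling, and 711 and 1629 after scaling without mitochondrially encoded and immunoglobulin genes. They became 579 and 512 over 2-fold. Without a filter they were 0 and 0 of 26972 genes in limma-trend, with 1554 and 1846 genes over 1.5-fold at an unadjusted p under 0.05. Leaving out each sample in turn gave between 0 and 0 calls in both directions, with smallest adjusted p-values of 0.0713 to 0.137, and the unadjusted counts stand in the report. With the replicate block the counts were 1248 and 1437, and 2098 of the 2113 called genes were also called. Fewer of them were also called elsewhere: 1705 with all 8 samples in a single fit and 1797 with median-of-ratios scaling. After scaling without mitochondrially encoded and immunoglobulin genes it was 1815 of the 2110 tested. The replicate numbers were not shown to pair the samples, since the deviations of same-numbered samples correlated at 0.0186. Every called gene tested under an alternative kept its direction in it. Where the groups do not overlap, only the scalings could have reversed it. Of the uncalled genes with values in the report, 5 changed sign. After scaling without mitochondrially encoded and immunoglobulin genes CCT2 was at -0.11, IRF4 at -0.13, MYC at -0.12, PSMB10 at -0.13 and RPS27A at -0.030. With a sample left out, CCT2 ranged from -0.24 to 0.32, IRF4 from -0.23 to 0.28, MYC from -0.059 to 0.12, PSMB10 from -0.017 to 0.058 and RPS27A from -0.17 to 0.41. The 1 call for the difference with against without FeAc became 0 with a pseudocount of 0.1, without a filter, with a minimum mean of 5 TPM and with the replicate block (342 genes at an unadjusted p under 0.05), and between 5 and 18 with a sample left out. The cause of these changes was not tested. Without read counts, the precision of low values is unknown.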
